A study of Rattus norvegicus with 20 samples.

Results

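The contactin family comprises 6 genes of the rat genome, Cntn1 to Cntn6, found by their symbols among the 17168 genes of each table. The family was chosen with earlier results of these data known. It was selected on the measured difference in Cntn6 (its counts and RPM) between treated and untreated transgenic rats. The difference of Cntn6 between these groups is therefore described with no test. Hippocampal polyadenylated RNA of 20 female rats aged 4 months was sequenced, with 1 library per rat and no pooling. In the genotype comparison, 5 wild-type Fischer 344 littermates (WTNT) were set against 5 TgF344-AD rats (TGNT), which carry human APPsw and PS1-∆E9 under the prion promoter. In the treatment comparison, 4 other untreated TgF344-AD rats (TGNT) were set against 6 TgF344-AD rats (TGTR) fed dibenzoylmethane and diazoxide (DZ/DIB) in chow from day 52 of age. Both groups of the treatment comparison therefore carry the transgenes, and there were no treated wild-type rats among the samples. The labels give the left hippocampus and the study's methods give the right for RNAseq.

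Contactins are cell-surface proteins of neurons and glia, built of immunoglobulin and fibronectin type III domains and held in the membrane by a glycolipid (GPI) anchor. With no cytoplasmic part of their own, they act with partners such as contactin-associated proteins, L1-type adhesion molecules and receptor tyrosine phosphatases in axon growth, myelinated fibre organisation and synapse formation. Cntn1 is part of the paranodal junction between axon and myelin, and Cntn2 (TAG-1) of the neighbouring juxtaparanode. Cntn3, Cntn4 and Cntn5 are neuronal paralogs with roles in neurite growth and circuit wiring, and Cntn4 is known to bind the amyloid precursor protein. Cntn6 (NB-3) is a neuronal ligand of Notch and takes part with Chl1 in the orientation of cortical dendrites.

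The 250 bases before the gene start in RefSeq's promoter table (build GRCr8) are shown for Cntn3, Cntn4, Cntn5 and Cntn6, the members with the larger differences or the closest covariation between treated and untreated transgenic rats. Each run reads 5′ to 3′ on the gene's strand and CG dinucleotides are in capitals. Cntn3 lies at chr4:136681912-136682161 on the minus strand, Cntn4 at chr4:140180571-140180820 on the plus strand, Cntn5 at chr8:15731958-15732207 on the minus strand and Cntn6 at chr4:138911317-138911566 on the plus strand.
Cntn3: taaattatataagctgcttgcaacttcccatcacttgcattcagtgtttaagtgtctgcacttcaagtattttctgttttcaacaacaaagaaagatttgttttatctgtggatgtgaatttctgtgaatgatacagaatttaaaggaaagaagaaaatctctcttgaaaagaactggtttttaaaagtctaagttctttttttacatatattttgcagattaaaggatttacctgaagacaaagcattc
Cntn4: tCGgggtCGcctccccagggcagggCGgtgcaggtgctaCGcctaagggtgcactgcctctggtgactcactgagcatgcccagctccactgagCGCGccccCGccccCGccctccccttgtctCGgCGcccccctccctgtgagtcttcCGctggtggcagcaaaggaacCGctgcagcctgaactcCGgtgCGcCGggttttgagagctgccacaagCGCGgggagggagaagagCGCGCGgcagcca
Cntn5: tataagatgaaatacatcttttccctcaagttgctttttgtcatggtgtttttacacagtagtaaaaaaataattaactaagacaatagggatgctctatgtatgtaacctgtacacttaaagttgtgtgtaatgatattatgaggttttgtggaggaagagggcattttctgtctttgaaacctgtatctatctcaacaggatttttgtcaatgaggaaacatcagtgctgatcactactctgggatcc
Cntn6: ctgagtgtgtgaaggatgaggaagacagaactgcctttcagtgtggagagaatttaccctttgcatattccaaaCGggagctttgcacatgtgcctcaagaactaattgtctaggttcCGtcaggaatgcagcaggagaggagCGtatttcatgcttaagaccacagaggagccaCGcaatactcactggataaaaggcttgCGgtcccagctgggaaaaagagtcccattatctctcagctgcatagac

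These windows differed widely in base composition. Cntn4 had 20 CG dinucleotides and 70% GC, above 91.4% of 27457 rat promoter windows of this length, whereas Cntn3 (30% GC) and Cntn5 (34.8% GC) had 0 CG dinucleotides and stood above only 1.82% and 5.76% of windows. Cntn6, with 5 CG dinucleotides and 48% GC, was close to the median window (6 and 52%). Of the other members, Cntn2 had 13 CG dinucleotides and Cntn1 had 3. An E-box (CANNTG, which reads alike on both strands) was present in 5 members, all but Cntn5, and in 65.2% of all windows. Searched on both strands, the GC box GGGCGG (32.4% of windows) and the AP-1 letters TGANTCA (6.36%) were found in Cntn4 alone of the family, and the CRE core TGACG (19%) in Cntn6 alone. TATAAA (13.1%) and CCAAT (34.3%) were in 0 of the 6. A match describes the letters of the window and is not a binding site.

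Sequencing depth was 5848458 to 9926088 estimated counts per rat in WTNT and 6610498 to 8117561 in TGNT of the genotype comparison, and 11151973 to 13481985 in TGNT and 9215039 to 14175594 in TGTR of the treatment comparison. Levels are RPM (reads relative to library size after TMM scaling by the authors), which are not corrected for transcript length, so paralogs are not ranked against each other. The tables were normalised apart, and no level is compared between them. App, whose human form the transgene carries, ranged from 1031 to 1160 RPM in WTNT and reached 2071 to 2364 RPM in their transgenic littermates, matching the genotype labels of these 10 rats. It ranged from 2216 to 2757 RPM in the 10 transgenic rats of the treatment comparison. Reads of the human transgene and of rat App were not separated here. Neuronal, CA1, CA2 and CA3, and dentate gyrus markers were detected in every group. In the genotype comparison WTNT 3 had 69.35 summed RPM of dentate gyrus markers, against 133.7 to 259.4 in the other WTNT rats. It also had the highest sums of subiculum and cortex markers (464.3) and of myelin markers (11397). WTNT 3 was the highest WTNT rat for Cntn2, Cntn3, Cntn4 and Cntn6, and the part of its marker levels in these values was not tested. In the treatment comparison TGTR 5 stood apart, with 3012 summed RPM of 10 choroid plexus markers, and TGTR 6 had 145.5, against 5.01 to 8.602 in the other 4 treated rats and 8.396 to 20.3 in the 4 untreated rats. Without TGTR 5 the differences of the 6 contactin genes kept their sign, except for Cntn1 (log2 difference −0.01 in place of 0.01). In RNA from whole tissue, fewer cells of a type and less RNA per cell cannot be told apart.

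Between TGNT and WTNT female rats, 0 of the 6 contactin genes passed both thresholds of edgeR's quasi-likelihood test (adjusted p below 0.05, fold 1.5 or more), against 0.0116% of all genes (2 of 17168). The edgeR exact and likelihood ratio tests (each 0.0233% of all genes), DESeq2 and limma-trend (each 0.0116%) also counted 0 of 6. At an unadjusted p under 0.05 the count was 1 of 6 (Cntn5), against 3.23% of all genes and 3.89% of those averaging 10 or more counts. In 0 of 6 genes did the groups not overlap, against 0.652% of the 11353 genes averaging 10 or more counts. The mean was higher in TGNT for 5 of 6 members. Of the genes averaging 10 or more counts, 52.4% were higher in TGNT, and their median was 0.01 on the log2 scale.

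**Figure D1:**
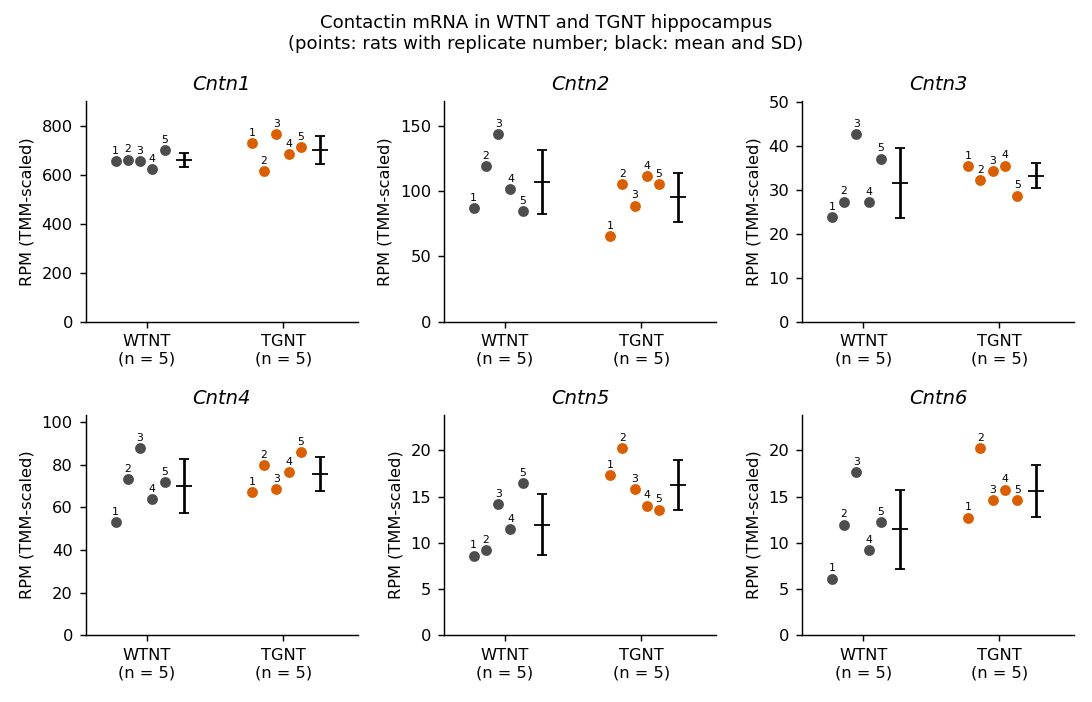
RPM (TMM-scaled, linear axes from 0) of each contactin gene in 5 WTNT and 5 TGNT rats, with points for rats, their replicate numbers, and the mean and SD in black. The groups overlap in all 6 panels, and the lowest Cntn6 and Cntn5 values (6.13 and 8.62 RPM) are both those of WTNT 1.

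Cntn5, implicated in glutamatergic wiring of the auditory system, was at 8.62, 9.20, 14.2, 11.4 and 16.4 RPM in WTNT rats 1 to 5 and at 17.35, 20.2, 15.8, 14.01 and 13.6 RPM in TGNT rats 1 to 5. All 5 TGNT rats were above the WTNT median, and 2 were above every WTNT rat. The mean was 11.97 ± 3.31 RPM (SD, n = 5) in WTNT and 16.2 ± 2.70 in TGNT, a log2 difference of 0.44 (SE 0.173, 95% interval 0.07 to 0.81). Its adjusted p was 1 by edgeR's quasi-likelihood test (unadjusted 0.0215) and the exact two-sided permutation test of the mean RPM gave 0.0794, where 0.00794 is the smallest p that 252 arrangements allow. The difference was therefore not past the threshold.

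Cntn6 was at 6.13, 11.97, 17.6, 9.22 and 12.3 RPM in WTNT rats 1 to 5 and at 12.7, 20.2, 14.6, 15.75 and 14.6 RPM in TGNT rats 1 to 5. WTNT 1 was lowest and all 5 TGNT rats exceeded the WTNT median, but WTNT 3 was above 4 of the TGNT rats. These levels rest on 37 to 139 counts per rat in WTNT and 102 to 134 in TGNT. The log2 difference of 0.43 (SE 0.209, 95% interval −0.02 to 0.87) had an adjusted p of 1 in edgeR and an exact permutation p of 0.103. Leaving out 1 rat at a time gave values between 0.27 (without WTNT 1) and 0.62 (without WTNT 3).

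The remaining members had smaller differences. Cntn1 was at 655.8, 660.9, 656.2, 622.0 and 699.3 RPM in WTNT and at 726.9, 614.2, 763.4, 681.7 and 710.9 RPM in TGNT, with 3 TGNT rats above every WTNT rat and 1 below them all. Its log2 difference was 0.09 (SE 0.0619, 95% interval −0.04 to 0.22), the narrowest interval of the family in this comparison. Cntn4 ranged from 53.0 to 87.7 RPM in WTNT and from 67.2 to 85.85 in TGNT (log2 difference 0.11, 95% interval −0.13 to 0.35), and Cntn3 from 23.7 to 42.6 in WTNT and from 28.7 to 35.5 in TGNT (0.07, −0.22 to 0.37). Cntn2 was the 1 member with a lower mean in TGNT, 95.2 ± 18.7 RPM (n = 5) against 107.1 ± 24.45 in WTNT (n = 5), a log2 difference of −0.17 (95% interval −0.49 to 0.16). Single rats moved this value, to −0.05 without WTNT 3 or without TGNT 1, and the Cntn4 value fell to 0.02 without WTNT 1. Adjusted p was 1 for these 4 genes in edgeR's quasi-likelihood test, and their exact permutation p ran from 0.183 for Cntn1 to 0.714 for Cntn3. All 12 oligodendrocyte and myelin markers also had lower means in TGNT (median log2 difference −0.19, 0 past the thresholds, summed RPM 5008 to 11397 in WTNT and 4711 to 8616 in TGNT). Of the 12, 2 had an unadjusted p under 0.05, against 3.89% of all genes averaging 10 or more counts. The part of these markers in the Cntn2 value was not tested.

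Between TGTR and TGNT female rats the count of contactin genes past both thresholds was 0 of 6 by edgeR's quasi-likelihood test and by limma-trend, in each case with 0% of all genes. This count depended on the tool: it was 1 by the edgeR exact test (0.0175% of all genes), the likelihood ratio test (0.0291%) and DESeq2 (0.0175%). The gene so counted was Cntn6, whose difference was the reason for choosing the family, so nothing about the family is read from it. Of the 5 other members, 1 (Cntn4) had an unadjusted p under 0.05 by the quasi-likelihood test, against 4.91% of all genes and 6.15% of those averaging 10 or more counts. Of the 6 members, 1 had groups that did not overlap, again Cntn6, on which the choice of the family rests. The share of the 12026 genes averaging 10 or more counts was 1.46%, and nothing is read from this comparison. All 6 means were higher in TGTR, although the sign for Cntn1 (0.01) turned under 4 alternatives. Of the genes averaging 10 or more counts, 50.1% were higher in TGTR, and their median was 0.00 on the log2 scale. As Cntn6 is among the 6 and the members are not independent of each other, this count is not read as a rise of the family.

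**Figure D2:**
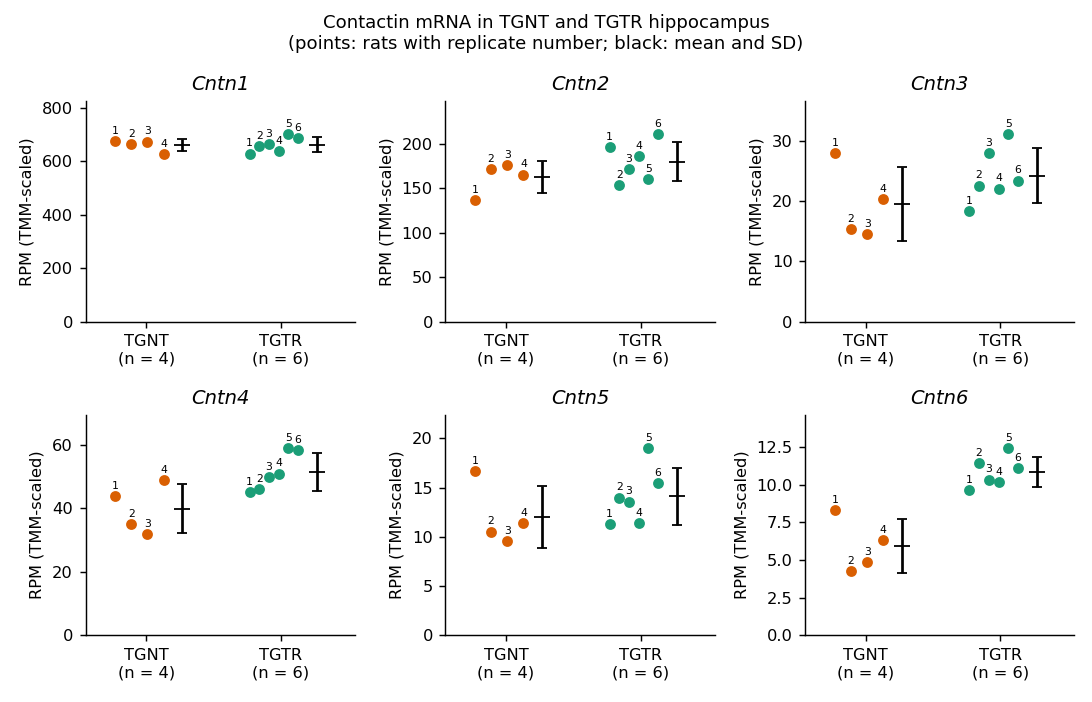
RPM (TMM-scaled, linear axes from 0) of each contactin gene in 4 TGNT and 6 TGTR rats, with points for rats, their replicate numbers, and the mean and SD in black. Cntn6 is the 1 panel in which the groups are apart (highest TGNT 8.32, lowest TGTR 9.64 RPM), and TGNT 1 is the highest untreated rat for Cntn3, Cntn5 and Cntn6.

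Cntn6 was at 8.32, 4.28, 4.88 and 6.35 RPM in TGNT rats 1 to 4, and in the 6 TGTR rats the lowest value was 9.64, the median 10.7 and the highest 12.4 RPM. Every treated rat was above every untreated rat, with TGNT 1 nearest to the treated group. The mean was 5.96 ± 1.80 RPM (SD, n = 4) in TGNT and 10.85 ± 1.00 (n = 6) in TGTR, a 1.82-fold difference (log2 0.87, SE 0.164). The counts behind it were 50 to 95 per rat in TGNT and 123 to 162 in TGTR. Leaving out 1 rat at a time moved the log2 difference between 0.74 (without TGNT 2) and 1.07 (without TGNT 1), and it was 0.83 without TGTR 5 and 0.86 without TGTR 6.

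Cntn4, the next gene after Cntn6 in the order of chromosome 4 genes, was at 44.0, 35.0, 31.9 and 49.0 RPM in TGNT rats 1 to 4, and at a lowest value of 45.05, a median of 50.5 and a highest value of 59.0 RPM in TGTR. All 6 treated rats were above the untreated median and 4 were above every untreated rat, and TGNT 4 fell within the treated range. The mean of 51.6 ± 5.95 RPM (n = 6) in TGTR against 40.0 ± 7.87 (n = 4) in TGNT gave a log2 difference of 0.37 (SE 0.117, 95% interval 0.12 to 0.62). The adjusted p over all genes was 0.964 in edgeR (unadjusted 0.00779), and the exact two-sided permutation p, not adjusted for the number of genes, was 0.0333, with 0.00476 the smallest that 210 arrangements allow. The difference did not pass the threshold.

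Cntn3 and Cntn5 had smaller differences, and TGNT 1 was the highest untreated rat in both. Cntn3 was at 27.9, 15.3, 14.5 and 20.25 RPM in TGNT rats 1 to 4 and between 18.3 and 31.0 RPM (median 22.9) in TGTR. Cntn5 was at 16.65, 10.5, 9.54 and 11.4 RPM in TGNT rats 1 to 4 and between 11.3 and 19.0 RPM (median 13.8) in TGTR. In both genes all 6 treated rats exceeded the untreated median and 1, TGTR 5, exceeded every untreated rat, while TGNT 1 was above the other 5. The log2 difference was 0.31 for Cntn3 (SE 0.184, 95% interval −0.09 to 0.71, edgeR adjusted p 0.990, exact permutation p 0.210) and 0.23 for Cntn5 (SE 0.175, −0.15 to 0.61, adjusted p 0.991, exact permutation p 0.314). Without TGNT 1 these values were 0.54 and 0.42, and without TGTR 5 they were 0.23 and 0.13.

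The paralogs of the axon and myelin junction were closer between groups. Cntn1 was at 675.0, 662.0, 672.3 and 625.4 RPM in TGNT rats 1 to 4 and between 628.1 and 699.3 RPM (median 658.4) in TGTR, a log2 difference of 0.01 (SE 0.0468, 95% interval −0.09 to 0.11). This interval leaves out changes of more than 1.08-fold upward and is the narrowest of the family. Cntn2 values lay between 136.3 and 175.8 RPM in untreated rats and between 153.2 and 210.6 RPM in treated rats, with 3 of 6 treated rats above every untreated rat, and its log2 difference was 0.15 (SE 0.0948, 95% interval −0.06 to 0.35), or 0.07 without TGNT 1. Adjusted p was 1 for Cntn1 and 0.990 for Cntn2 in edgeR, and exact permutation p was 0.890 and 0.229. Means of all 12 oligodendrocyte and myelin markers were higher in TGTR (median log2 difference 0.22, 0 past the thresholds, summed RPM 4493 to 7099 in TGNT and 5289 to 8071 in TGTR). Of the 12, 1 had an unadjusted p under 0.05, against 6.15% of all genes averaging 10 or more counts. The part of these markers in the Cntn2 value was not tested.

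**Figure D3:**
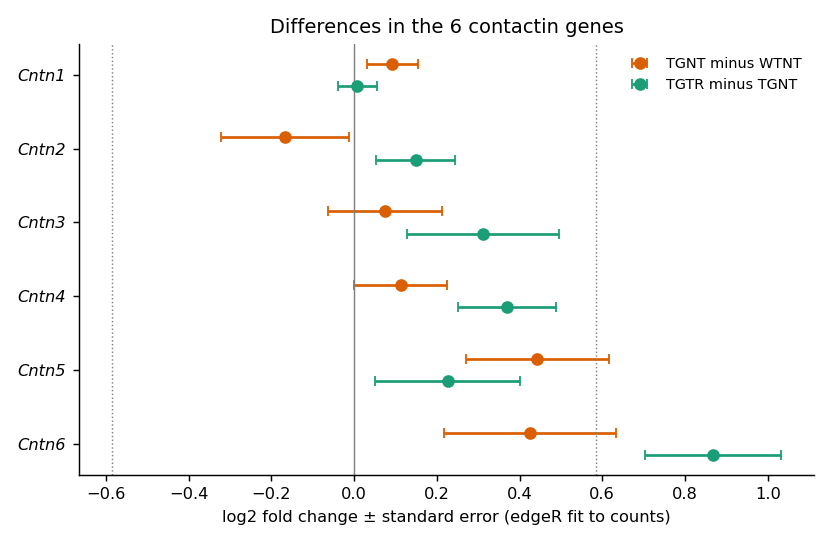
Log2 fold change (x axis) of each contactin gene, TGNT minus WTNT in orange and TGTR minus TGNT in green, as points with the standard error of the edgeR fit; dotted lines mark a fold change of 1.5. Cntn6 in the treatment comparison (0.87) is the 1 point beyond a dotted line, and Cntn2 in the genotype comparison (−0.17) the 1 point below 0.

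Markers of the subiculum and adjoining cortex moved with the treatment groups too. All 9 listed genes in the table had higher means in TGTR (median log2 difference 0.46, 0 past the thresholds). Of these, 4 had an unadjusted p under 0.05 by the quasi-likelihood test, against 6.15% of all genes averaging 10 or more counts. Among the 9 was Slc17a6, a vesicular glutamate transporter, at 17.0 ± 3.81 RPM in TGNT and 31.0 ± 5.49 in TGTR. The study itself reported both Slc17a6 and Cntn6 as raised by the treatment. As the list was chosen with earlier results of these data known, its count is no independent support. The summed RPM of the 9 markers was 314.6, 239.4, 241.1 and 279.6 in TGNT rats 1 to 4 and from 282.3 to 422.0 in TGTR, so the groups overlapped in this sum. TGNT 1, the untreated rat with the most Cntn6, had the highest untreated sum, and TGTR 5, with the most Cntn6 of all, had the highest sum. At near-equal sums, TGNT 4 (279.6) had 6.35 and TGTR 2 (282.3) had 11.4 RPM of Cntn6, and TGNT 1 (314.6) had 8.32 and TGTR 1 (308.0) had 9.64. These are single rats, and the family was chosen on their Cntn6 values, so nothing is read from them. In the genotype comparison the sums were 268.1 to 464.3 in WTNT and 309.5 to 404.0 in TGNT, lowest in WTNT 1, the rat with the least Cntn6. The part of these markers in the contactin values was not tested.

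**Figure D4:**
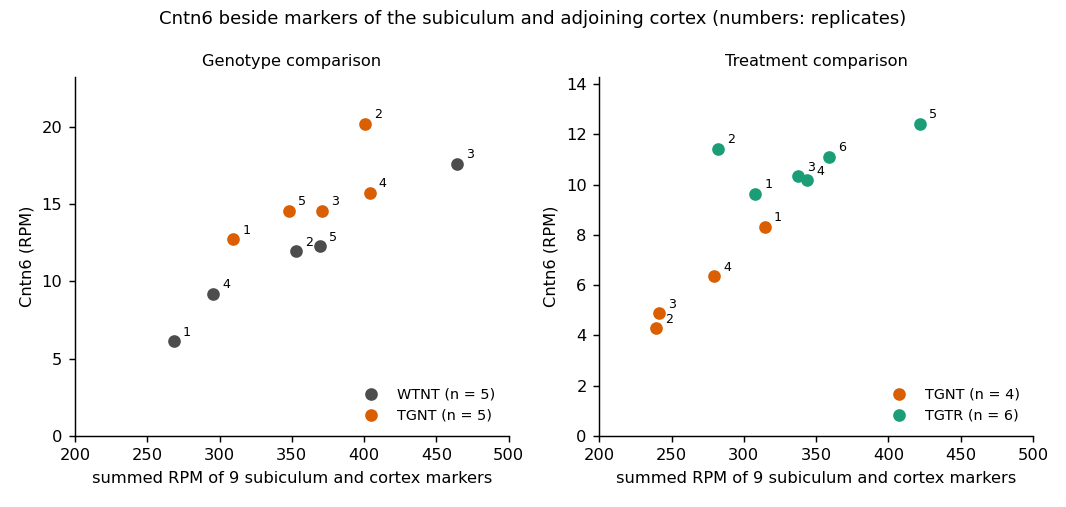
Cntn6 (y axis, RPM) against the summed RPM of 9 markers of subiculum and adjoining cortex (x axis, which starts at 200) in the genotype comparison, left, and the treatment comparison, right, with 1 numbered point per rat. Rats with larger sums tend to lie higher in both panels. The family was chosen on the Cntn6 values of the right panel, so nothing is read from the difference between its groups.

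Further marker lists were read in the same way, and 0 of their genes passed the thresholds in either comparison. In the treatment comparison, interneuron markers had higher means for 7 of 8 genes (median log2 difference 0.17), CA1 markers for 4 of 5 (0.16) and thalamus and habenula markers for 3 of 4 (0.19), with Gbx2 at 0 in all rats. Choroid plexus markers had higher means for 10 of 10 genes (3.73), and 6 had an unadjusted p under 0.05, against 6.15% of all genes averaging 10 or more counts. Outside TGTR 5 and TGTR 6, however, only 1 treated rat (8.602) had a larger sum than the lowest untreated rat (8.396). Means were lower in TGTR for 5 of 5 CA2 and CA3 markers (−0.19), 3 of 3 dentate gyrus markers (−0.06), 7 of 8 mature neuron markers (−0.04), 6 of 6 astrocyte markers (−0.03) and 5 of 6 microglia markers (−0.03). An unadjusted p under 0.05 by the quasi-likelihood test was found for 1 gene each of the interneuron, CA1, and thalamus and habenula lists (higher) and the CA2 and CA3 list (lower). It was found for 0 dentate gyrus, mature neuron, astrocyte and microglia markers. In the genotype comparison the medians were 0.09 for interneurons, −0.10 for CA1, 0.01 for thalamus and habenula, −0.16 for CA2 and CA3, −0.06 for the dentate gyrus, −0.02 for mature neurons, 0.01 for astrocytes, 0.08 for microglia and 0.13 for subiculum and cortex, and choroid plexus markers had a summed RPM of at most 19.97 in any rat. There, 1 CA1 marker and 1 subiculum and cortex marker, both higher in TGNT, had an unadjusted p under 0.05 by the quasi-likelihood test. The share of all genes averaging 10 or more counts was 3.89%. The part of these lists in the contactin values was not tested.

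Whether the paralogs vary together from rat to rat was asked after removal of the group means, on log2(RPM + 1) over the 10 rats of each table. Of 15 pairs of contactin genes in the treatment table, 10 had a positive Pearson's r (median 0.42), and 3 pairs passed an adjusted p of 0.05 by r and by Spearman's rho in exact permutations of rats within groups. Cntn3 and Cntn5 had r = 0.88 (exact p 0.00208, adjusted 0.0156) and rho = 0.89 (exact p 0.00145, adjusted 0.0109). Cntn5 and Cntn6 had r = 0.84 (exact p 0.00162, adjusted 0.0156) and rho = 0.83 (exact p 0.00110, adjusted 0.0109). Cntn3 and Cntn6 had r = 0.87 (exact p 0.00694, adjusted 0.0347) and rho = 0.87 (exact p 0.00781, adjusted 0.0391). The family was chosen on the Cntn6 values of this table. Removal of the group means takes out their difference between groups, but the tests of pairs with Cntn6 are not independent of that choice. Without TGNT 1 and TGTR 5, the rats farthest from the median in these pairs, r over the other 8 rats was 0.65 (exact p 0.0958), 0.58 (0.0778) and 0.65 (0.147). The 3 pairs thus did not pass without those 2 rats. Leaving out the farthest rats also narrows the range and leaves fewer rats. How far the correlations rest on those 2 rats therefore cannot be told from this. With the 2 farthest rats of each pair's own x axis left out, 0 of 15 pairs passed. The share of such correlations over all pairs of genes was not computed, so these counts are not read as particular to the family. Ordered by the lower r of the 2 tables among 11339 genes, Cntn5 stood at rank 164 and Cntn6 at 202 for Cntn3. Cntn6 stood at rank 409 for Cntn5, so many other genes were closer.

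Of the 15 pairs in the genotype table, 10 were positive as well (median 0.40), and 0 passed an adjusted p of 0.05, with 3 at an unadjusted exact p under 0.05 by r. The strongest pair was Cntn4 and Cntn6 (r = 0.90, exact p 0.00590, adjusted 0.0885; rho = 0.85, exact p 0.00375, adjusted 0.0562), at r = 0.62 without WTNT 1 and WTNT 3. All 6 pairs among Cntn3, Cntn4, Cntn5 and Cntn6 had a positive r in both tables over all 10 rats. In the genotype table, without WTNT 1 and WTNT 3, r was −0.26 for Cntn3 and Cntn4 and −0.13 for Cntn4 and Cntn5. It stayed positive for Cntn3 and Cntn6 (0.16) and for Cntn3 and Cntn5 (0.67). For Cntn5 and Cntn6 it was 0.55 without WTNT 1 and WTNT 5. A shared course of these genes is therefore not read from the genotype table. Cntn2 took another course, with r = 0.67 against Cntn6 in the genotype table (exact p 0.0440, adjusted 0.184; rho = 0.64, exact p 0.0783, adjusted 0.293; r = 0.37 without TGNT 1 and WTNT 3) and r = −0.67 in the treatment table (exact p 0.0218, adjusted 0.0818; rho = −0.70, exact p 0.0287, adjusted 0.0898; r = −0.40 without TGNT 1 and TGTR 2). The difference between the tables was not tested.

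**Figure D5:**
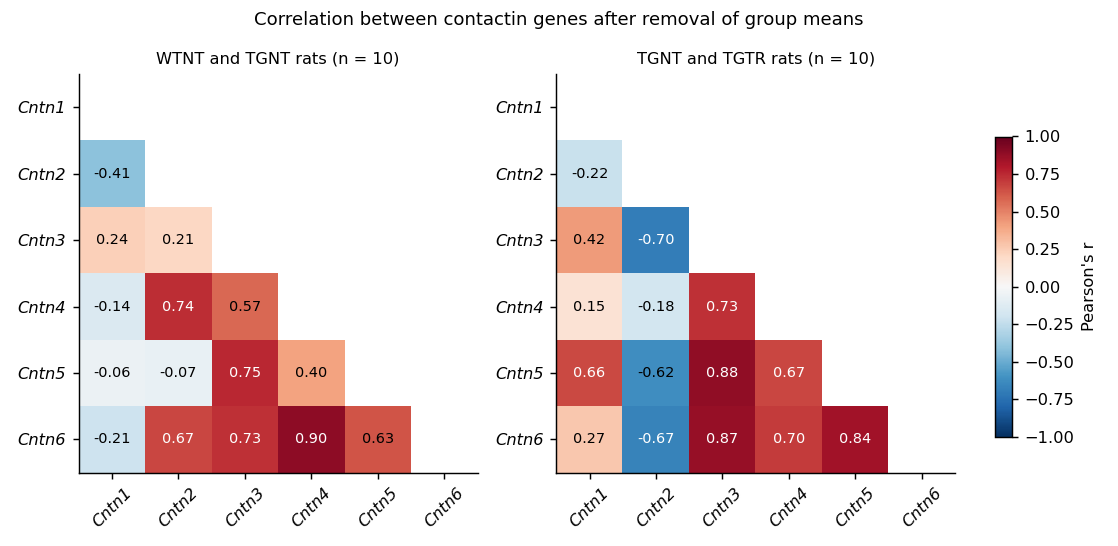
Pearson's r (colour and printed value) of the 15 pairs of contactin genes over 10 rats after removal of group means, for the genotype table on the left and the treatment table on the right. The pairs among Cntn3, Cntn4, Cntn5 and Cntn6 are positive in both panels, while Cntn2 is negative against every paralog in the treatment table. In the genotype table Cntn3 and Cntn4, and Cntn4 and Cntn5, turned negative without WTNT 1 and WTNT 3.

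The genes whose deviations from the group means were most like those of each member in both tables were taken among 11339 genes, as a description over 10 rats per table that share libraries and depth. For Cntn6 they were Ass1, an enzyme of arginine synthesis (r = 0.97 in the genotype and 0.96 in the treatment table), Nxph3, a neurexin ligand (0.97 and 0.96), and Chrna5, a nicotinic receptor subunit (0.94 and 0.94). In TGNT (n = 4) and TGTR (n = 6), Ass1 was at 6.72 ± 2.51 and 7.66 ± 0.976 RPM (log2 difference 0.19, edgeR adjusted p 1), Nxph3 at 5.98 ± 6.51 and 18.2 ± 3.62 (1.62, 0.957) and Chrna5 at 7.26 ± 5.03 and 12.2 ± 3.03 (0.75, 0.990). How likeness between rats relates to these differences between groups was not tested. For Cntn2 they were Adpgk (0.96 and 0.96), Tubb4a, a tubulin of oligodendrocytes and neurons (0.95 and 0.97), and Myrf, a transcription factor of myelin genes (0.96 and 0.95). Cntn4 was most like Nova1, a neuronal splicing factor (0.86 and 0.93), Slc17a6 (0.91 and 0.85) and Plcl2 (0.84 and 0.83). Cntn3 was most like Oxr1 (0.93 and 0.95), Arpp21 (0.92 and 0.94) and Gpr52 (0.92 and 0.91), Cntn5 most like Fnbp1l (0.90 and 0.94), Gprasp1 (0.89 and 0.91) and Tbc1d9 (0.89 and 0.90), and the genes most like Cntn1 included Amer1 (0.76 and 0.84) and Abcb1a (0.84 and 0.75). No contactin gene was among the 3 genes most like another. The nearest was Cntn6, at rank 84 for Cntn4.

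Of 42 listed partners and relatives of the contactins, 36 were in the tables, each averaging 10 or more counts. In the genotype comparison 17 had a higher and 19 a lower mean in TGNT (median log2 difference −0.02), and 1, App, passed both thresholds. App, whose human form the transgene carries, was at 1102 ± 47.5 RPM in WTNT (n = 5) and 2187 ± 122 in TGNT (n = 5, log2 1.00, adjusted p 2.45e-07 in edgeR). Besides App, 4 of 36 had an unadjusted p under 0.05, all lower in TGNT with an adjusted p of 1, against 3.89% of all genes averaging 10 or more counts. Among them were Nfasc, the glial partner of Cntn1 at the paranode (−0.17), the App relative Aplp1 (−0.14) and Kcna1, a potassium channel of the juxtaparanode (−0.26). In the treatment comparison 15 were higher and 21 lower in TGTR (median −0.01), 0 passed the thresholds in edgeR, and 1 of 36 had an unadjusted p under 0.05 (6.15% of all genes averaging 10 or more counts). This was the receptor tyrosine phosphatase Ptprg, which binds Cntn3, Cntn4, Cntn5 and Cntn6, at 239.3 ± 25.6 RPM in TGNT and 212.2 ± 14.3 in TGTR (log2 difference −0.17, adjusted p 0.964). App itself was at 2478 ± 179 RPM in TGNT and 2532 ± 163 in TGTR (log2 difference 0.03, adjusted p 1).

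By list, higher means in TGNT over WTNT were found for 4 of 5 contactin-associated proteins, 2 of 3 L1-type molecules, 1 of 3 amyloid precursor genes, 1 of 5 receptor tyrosine phosphatases and matrix ligands, 0 of 5 Notch and other contactin receptors, 2 of 8 partners at the node, paranode and juxtaparanode, 4 of 4 IgLON molecules, which share the GPI anchor, and 3 of 3 Dscam and sidekick molecules. In TGTR over TGNT the corresponding counts were 2, 2, 3, 0, 2, 2, 2 and 2. Cntnap1, the axonal partner of Cntn1, was at 482.0 ± 11.3 RPM in TGNT and 460.7 ± 23.3 in TGTR (log2 difference −0.06, adjusted p 0.992). Cntnap2, Cntnap3, Chl1, Adam22, Iglon5 and Sdk1 were not analysed here.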

How the data were processed

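Stranded mRNA libraries of 20 hippocampi were processed by the authors. The submitters' processing notes name bcl2fastq 2.17, Bowtie2 2.1.0, RSEM 1.2.15, edgeR and rat build rn6; the annotation and read filters are not given in the sources used here. The deposited tables hold RSEM estimated counts per gene and, as a signal, RPM (reads relative to library size) scaled by the authors with TMM, for 17168 genes in separate genotype and treatment tables. RSEM can divide reads between similar genes, though the contactin estimates were whole numbers in all rats. The series text names 1 more untreated transgenic rat of the treatment comparison, not analysed here.

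Estimated counts were rounded and each table was fitted by itself with edgeR 4.0.16 in R 4.3.3 (TMM factors, no filter, quasi-likelihood test, Benjamini-Hochberg over all genes). Calls needed an adjusted p below 0.05 together with a fold of 1.5 or more. SE is the log2 fold change over the root of F. Rats are the replicates, and intervals and tests cover the spread between rats. Single genes were also tested by exact two-sided permutation of mean RPM, and pairs of members by exact permutation within groups (14400 and 17280 arrangements), adjusted over 15 pairs per table. On simulated tables of 17168 genes with 200 changed 2-fold, the fit recovered 90.5% of the changed genes for both comparisons. Of its calls there, 2.16% (genotype) and 4.23% (treatment) were false. In the measured tables the same fit called 2 (genotype) and 0 (treatment) of 17168 genes. How closely the simulated tables follow the differences between rats was not tested. The power of the 2 comparisons is therefore not read from these shares.

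Members and lists were chosen with earlier results of these data known. The text names the 6 contactins, App, listed partners with an unadjusted p under 0.05 (at most 3 per list, by p), and the 3 genes with the highest lower value of r in the 2 tables, among genes averaging 10 or more counts in both. Cntnap1, the marker genes Slc17a6 and Gbx2, and the values given for Ass1, Nxph3 and Chrna5 were added after values were seen. Some genes that this rule names are not reported here. Partners were matched by symbol or synonym (Adgrl1 is listed as Lphn1). Promoter windows and gene order are from RefSeq (GRCr8), which matched 6 of 6 members. Alternatives were RLE or library-size scaling, count filters, the edgeR exact and likelihood ratio tests, DESeq2 1.42.0, limma 3.58.1 trend on log2(RPM + 1) or log2(RPM + 0.1), no fold threshold, a replicate block, another pseudocount or 2 rats fewer for correlations, and leaving out each rat.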

Additional observations from a re-analysis of the deposited data

How the results depend on the processing

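The count of contactin genes past the thresholds was 0 under every alternative in the genotype comparison. In the treatment comparison it was 0 in edgeR's quasi-likelihood test and 1, Cntn6, with the edgeR exact test, the likelihood ratio test and DESeq2. The cause was not tested, and as the family was chosen for this difference of Cntn6 the count is no evidence about the family. Leaving out each rat gave counts of 0 to 0 in both comparisons. The sign turned for Cntn3 in the genotype comparison without WTNT replicate 1 (−0.0136, range over left-out rats −0.0136 to 0.1998) and for Cntn1 in the treatment comparison with the replicate block (−0.0284) and without TGNT 4, TGTR 5 or TGTR 6 (range over left-out rats −0.0185 to 0.021). The other 10 differences kept their sign under all 20 alternatives each. The count of correlated pairs in the treatment table went from 3 to 0 without the 2 farthest rats of each pair. Replicate numbers do not pair the rats: deviations of same-numbered rats correlated between −0.21 and 0.34 in the genotype comparison, where 2 of 5 WTNT rats correlated best with their own number, and between −0.58 and 0.14 in the treatment comparison, with 0 of 4. With the replicate block the count of contactin genes stayed 0 in both comparisons. Cntn6 in untreated transgenic rats of the treatment comparison rests on 50 to 95 counts per rat, and 4 untreated rats limit every treatment difference.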

Other observations

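In the RefSeq gene order of chromosome 4 (GRCr8), Cntn3, Chl1, Cntn6 and Cntn4 are consecutive protein-coding genes, so 3 of the 6 contactins are neighbours. Cntn2 stands beside the L1-type gene Nfasc on chromosome 13. Genes flanking the chromosome 4 group had log2 differences between TGTR and TGNT of 0.10 (Pdzrn3, SE 0.1002) and 0.13 (Ppp4r2, SE 0.0585) on the Cntn3 side and 0.05 (Trnt1, SE 0.0589) on the Cntn4 side, against 0.31, 0.87 and 0.37 for Cntn3, Cntn6 and Cntn4. Between TGNT and WTNT these flanking genes had values of 0.02, −0.05 and 0.03. Chl1 was not analysed here, and a difference between the contactins and their neighbours was not tested. Within the 4 untreated transgenic rats of the treatment comparison Cntn6 spanned 4.28 to 8.32 RPM (coefficient of variation 30.2%), and within the 6 treated rats 9.64 to 12.4 RPM (9.26%). Within the 5 WTNT rats its coefficient of variation was 37.2%, the highest of the family in that group, and within the 5 TGNT rats of that comparison 18.04%.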
